A study of Mus musculus with 4 samples.

Results

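The genes described here encode the T cell receptor (TCR) complex and its proximal signalling proteins. They were chosen by name: 42 names gave 40 genes, because Rlk is an older symbol of Txk and Gads of Grap2. The 40 genes were taken from 35275 gene IDs in the count table, and all 40 were among the 12490 genes measured at 2 CPM or more in at least 1 library (CPM, counts divided by the library's total on a common scale). No filter on measured values was used in the choice, but the genes were chosen with earlier results of these data known. They were grouped by role into CD3 and zeta chains (4 genes), kinases (5), adaptors and scaffolds (10), surface partners and phosphatases (5), ubiquitin ligases and UBASH3 phosphatases (4), a RAS, PKC and NF-kB branch (5), and a calcium and NFAT branch (7).

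The receptor itself has no enzyme activity. LCK phosphorylates the tails of the CD3 and zeta chains when the receptor binds peptide on MHC, ZAP70 docks there and phosphorylates LAT and SLP-76, and this scaffold holds PLCG1 and the exchange factors that open the RAS, PKC and calcium branches. In the thymus the strength of this signal decides between death by neglect, positive selection and negative selection, and CD69 on the surface marks cells that have just received it.

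Thymocytes were sorted by flow cytometry from C57BL/6 mice aged 6 to 8 weeks into group 2, with intermediate TCRβ and high CD69, and group 3, with high TCRβ and high CD69. The genotypes were Uba3F/F, labelled wild type (WT), and Uba3ΔT, also labelled Uba3-/- (KO). Uba3 encodes the catalytic subunit of the NEDD8-activating enzyme; the Cre that drives the deletion, and how many mice gave each library, are not given in the sources used here. Each of the 4 groups held 1 library, so a fold between 2 libraries has a 95% interval for counting error only and no replicate check.

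The libraries held 8043077 to 10299863 counts. In the labels, the cell type field disagrees with the titles, since it follows genotype (group 2 for WT, group 3 for KO) in place of the sort; the titles were used. Ccr7, a receptor of mature thymocytes, fitted the titles: it had 195.5 CPM in WT group 2, 592 in WT group 3, 160 in group 2 labelled KO and 599 in group 3 labelled KO. Cd69 was present in every library, at 526 to 663 CPM. Uba3 went against its label, with 453 and 356 counts in the WT libraries of groups 2 and 3 and 647 and 856 in those labelled KO. Directions below are therefore those of libraries labelled KO over WT. Reads over the whole gene do not show whether the deleted exons were lost.

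Levels of the 40 genes spanned about 3 orders of magnitude. Per length, in the deposited RPKM (reads scaled to library size and gene length), Lck had the highest level, with 3367 in WT group 2, 3393 in WT group 3, 3505 in group 2 labelled KO and 3322 in group 3 labelled KO. Its libraries lay within 1.08-fold of each other in CPM. Cd3g came next, with a median RPKM over the 4 libraries of 2522, followed by the adhesion receptor gene Cd2 (1268), Lat (1200), Cd3e (844.5) and Cd3d (685). RPKM of Lat ran from 859 to 1271 and that of Cd2 from 1099 to 1365, and Cd2 was above Lat in each library. At the low end were Sos1 (3.05), Cblb (4.96), Malt1 (5.05), Nfatc2 (5.26) and Ubash3b (6.83). The ranges of Cblb, Malt1 and Nfatc2 overlapped.

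The order by level depends on the gene lengths behind the RPKM. Those lengths were shorter than the union of annotated exons for each of the 40 genes, by a median factor of 2.60, and how they were defined is not given in the sources used here. On union lengths Lck stayed first, but Cd3g moved from rank 2 to rank 5 and Cd2 and Lat took ranks 2 and 3. Comparisons of 1 gene between libraries do not depend on length.

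**Figure D1:**
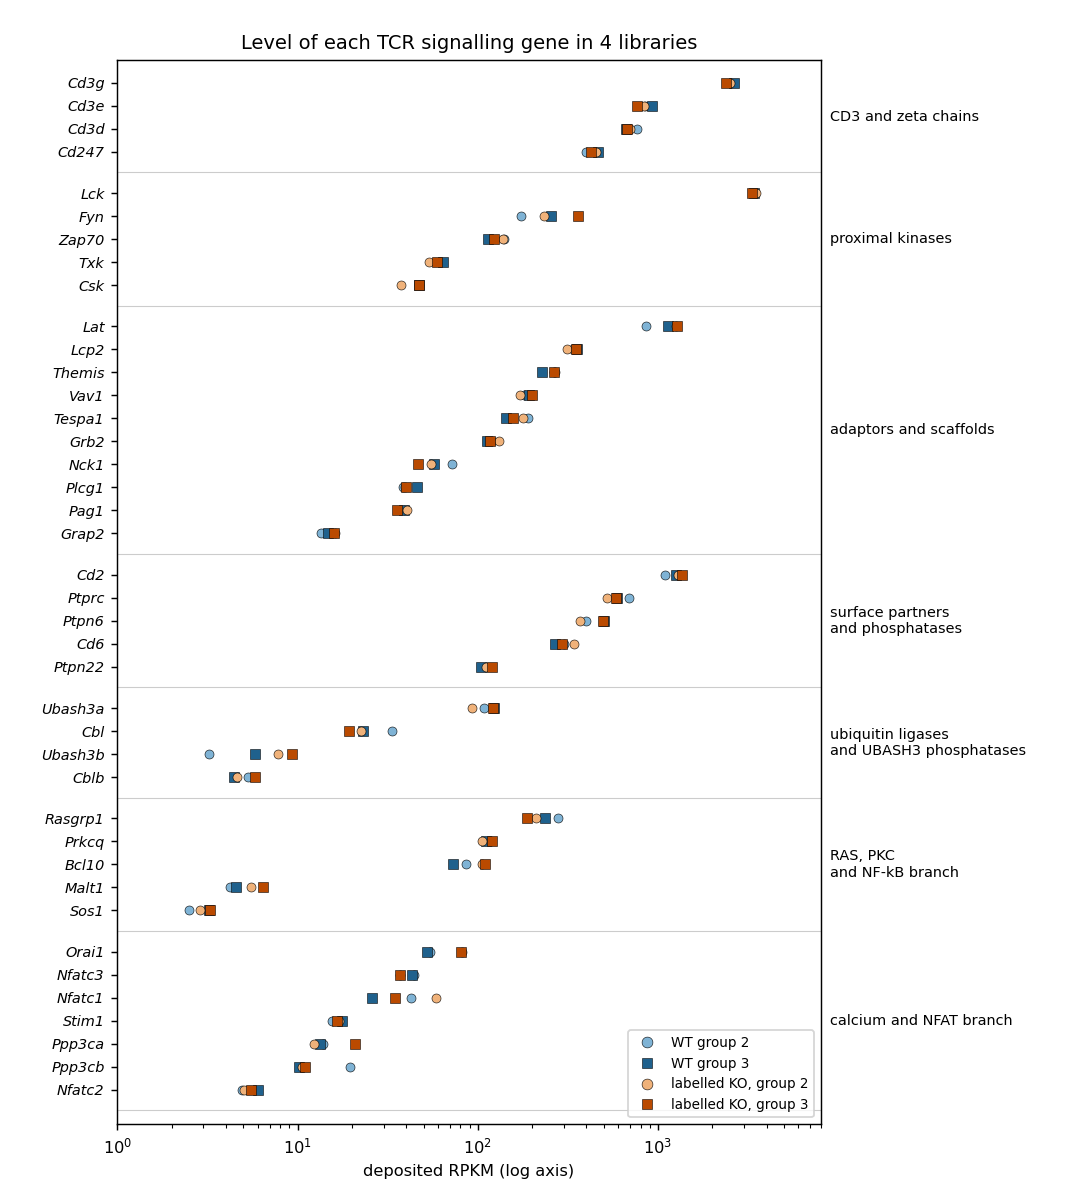
Deposited RPKM (log axis) of the 40 genes by role in the 4 libraries, 1 point per library. Lck and Cd3g lie furthest right and their 4 points nearly coincide, whereas the points of Fyn, Ubash3b, Orai1 and Nfatc1 spread.

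Together the genes took the same share of all counts in the 4 libraries, from 1.97% to 1.98%. Of the 40, 30 (75.0%) stayed within 1.5-fold over all 4 libraries in CPM scaled by the trimmed mean of M-values (TMM). For comparison, 70.2% of the 8379 genes in the same range of mean CPM did so, and 51.7% of all measured genes. The median log2 fold of the 40, libraries labelled KO over WT, was 0.04 in group 2 and 0.07 in group 3, beside 0.0033 and -0.0056 over all measured genes. From group 2 to group 3 the median was 0.01 in WT and 0.02 in the libraries labelled KO, beside -0.0033 and -0.0094. Over the 9093 genes at 10 CPM or more in at least 1 library, the genotype medians were -0.0232 in group 2 and 0.0292 in group 3. For these genes the medians from group 2 to group 3 were -0.0245 in WT and 0.0354 in the libraries labelled KO. The 10 genes that varied by 1.5-fold or more were Ubash3b (3.00-fold between highest and lowest library), Nfatc1 (2.34), Fyn (2.17), Ppp3cb (1.92), Ppp3ca (1.70), Cbl (1.67), Orai1 (1.62), Malt1 (1.58), Bcl10 (1.55) and Lat (1.53). No receptor chain and no gene of the surface partner and phosphatase group was among them. In these sorted pools, fewer cells of a type and less RNA per cell cannot be told apart.

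**Figure D2:**
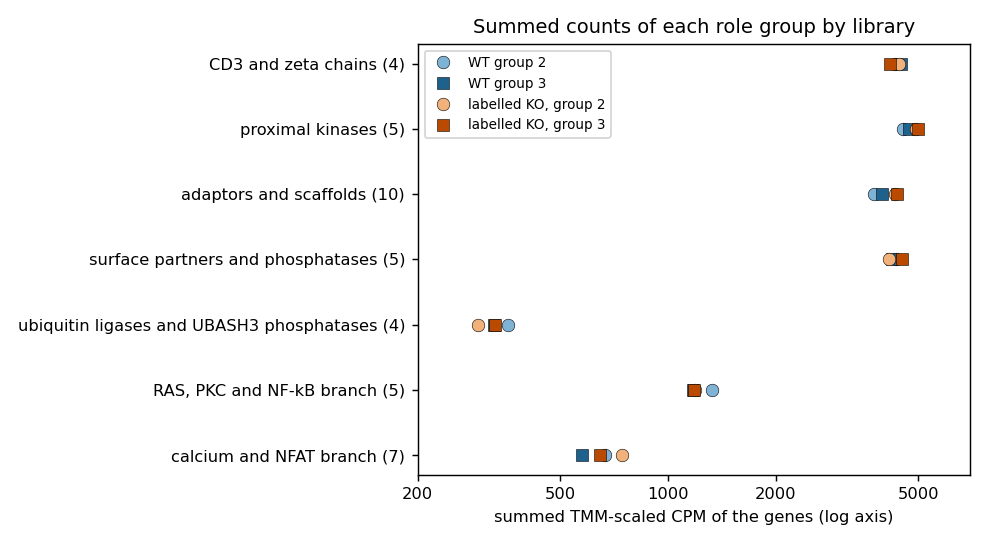
Summed TMM-scaled CPM (log axis) of the genes of each role, 1 point per library, with the number of genes in brackets. The CD3 and zeta sums lie between 4178 and 4485, and the sums of the calcium and NFAT branch between 574 and 744.

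Transcripts of the receptor's own signalling chains stayed within 1.18-fold over the 4 libraries. Cd3d, Cd3e and Cd3g encode the delta, epsilon and gamma chains, and Cd247 encodes zeta, which carries most of the phosphorylation motifs. Cd3g had 1440 TMM-scaled CPM in WT group 2, 1497 in WT group 3, 1460 in group 2 labelled KO and 1401 in group 3 labelled KO, a 1.07-fold range. Cd3d had 997, 869.8, 941 and 902 in the same order. Cd3e had 1198, 1316, 1223 and 1118. Cd247 had 683, 802, 805 and 757, so that WT group 2 was the low library. None of these 4 genes passed the test for genotype or sorted group (edgeR's quasi-likelihood test, adjusted p from 0.864 to 0.987 for genotype and from 0.917 to 1 for sorted group). At these depths small ratios had intervals that left out 1: Cd3e in group 3 was at 0.85 (0.83 to 0.87) of WT in the library labelled KO, and at 1.02 (0.99 to 1.05) in group 2. Cd247 shares exonic bases with Gm16565 and Pou2f1, and its reads cannot be told apart from theirs where the genes overlap. The same holds for Plcg1, Lcp2, Themis, Ptpn6 and Nfatc3 and their neighbours, but for none of the genes called below.

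Cd3g, Cd3d and Cd3e lie side by side on chromosome 9 (mm10). Cd3g occupies 44969572 to 44980431 on the minus strand, Cd3d 44981786 to 44987339 on the plus strand and Cd3e 44998740 to 45009627 on the minus strand. The starts of Cd3g and Cd3d are 1355 bp apart and point away from each other. The 250 bases before each start are printed for this pair because the 2 genes sit back to back and both kept a narrow range. In these stretches from RefSeq (GRCm38.p6), the Cd3d window (chr9:44981536-44981785, plus strand) has 41.2% G and C and 0 CpG pairs, and the Cd3g window (chr9:44980432-44980681, minus strand) has 51.6% and 4. Neither holds CCAAT on either strand, the motif capitalised in the sequences printed for other genes.
Cd3d: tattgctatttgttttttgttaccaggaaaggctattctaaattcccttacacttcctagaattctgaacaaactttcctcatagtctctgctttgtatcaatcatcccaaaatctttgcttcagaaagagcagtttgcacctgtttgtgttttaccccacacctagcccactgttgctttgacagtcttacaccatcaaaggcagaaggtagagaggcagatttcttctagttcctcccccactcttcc
Cd3g: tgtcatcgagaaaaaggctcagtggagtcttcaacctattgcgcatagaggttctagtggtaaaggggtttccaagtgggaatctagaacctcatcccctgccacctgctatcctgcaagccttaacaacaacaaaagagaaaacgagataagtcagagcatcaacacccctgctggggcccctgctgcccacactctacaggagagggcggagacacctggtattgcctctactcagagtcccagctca

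A small set of the genes differed by genotype, each higher in the libraries labelled KO. Over both sorted groups 6 of the 40 rose: Fyn, Lat, Ubash3b, Bcl10, Orai1 and Nfatc1 (edgeR's quasi-likelihood test on a model of sorted group plus genotype, adjusted p under 0.05 over 12490 genes). Over all measured genes 2.95% rose and 1.87% fell, and 0 of the 40 fell by this test. At an unadjusted p under 0.05, 9 of the 40 differed in either direction in edgeR (13.2% of all measured genes) and 7 by DESeq2 (6.45%). DESeq2 with adjustment called 2 of the 6, Fyn and Orai1, higher (125 of the 12490 measured genes, 1%) and 0 lower (0.432%), and limma-voom called 5 higher, without Ubash3b, and 0 lower (2.51% and 1.49%). The 4 libraries leave 1 residual degree of freedom, so the error term is the part of the genotype effect that differs between the sorted groups, pooled over genes, and not variation between mice. Leaving out any 1 of the 4 libraries, WT group 2, WT group 3 or those labelled KO in group 2 or 3, ended all 6 calls. That fit held genotype alone, and it ended the 6 calls with all 4 libraries too. Several genes below had both libraries labelled KO above, or below, both WT libraries. How many of all measured genes did so was not counted, so this is a description only. The called genes lie apart in the genome (mm10). Fyn is on chromosome 10 (39368855 to 39565381, plus strand), Lat on chromosome 7 (126363824 to 126369570, minus strand), Ubash3b on chromosome 9 (41011098 to 41161697, minus strand), Bcl10 on chromosome 3 (145922804 to 145934356, plus strand), Orai1 on chromosome 5 (123015074 to 123030456, plus strand) and Nfatc1 on chromosome 18.

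**Figure D3:**
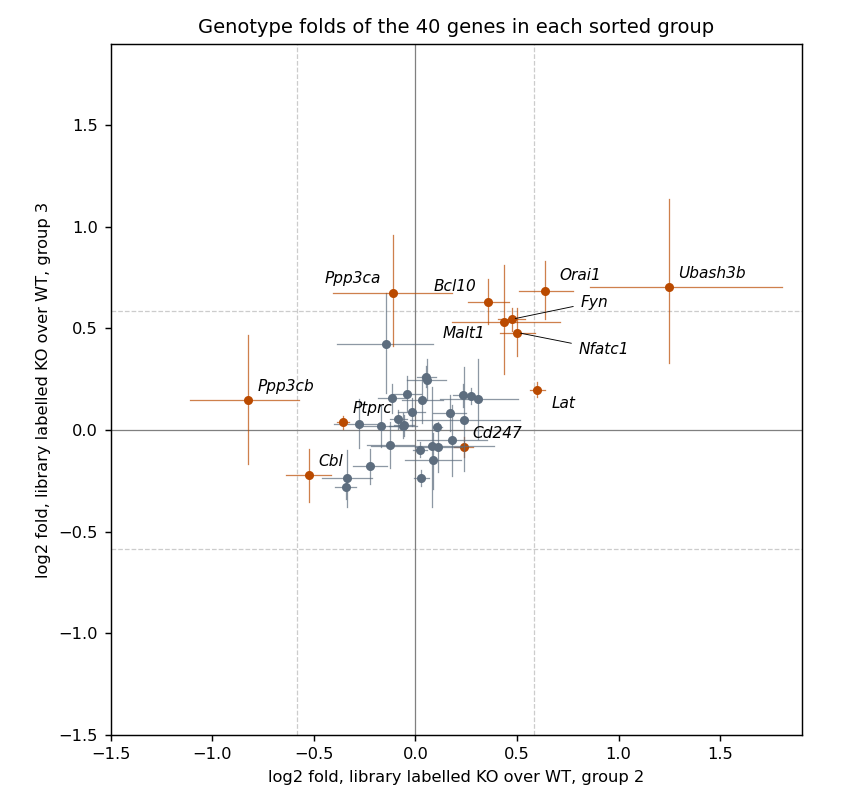
Log2 fold of TMM-scaled CPM plus 0.5, library labelled KO over WT, in group 2 (x axis) and group 3 (y axis) for the 40 genes; lines are 95% counting intervals of the count ratio and dashed lines mark 1.5-fold. Orai1 and Ubash3b lie beyond 1.5-fold on both axes, Lat only in group 2 and Bcl10 only in group 3; named genes are in orange.

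Of the 5 kinases, Fyn rose. It encodes a SRC-family kinase that can phosphorylate the CD3 chains alongside LCK. Fyn had 325 CPM in WT group 2, 482 in WT group 3, 451 in group 2 labelled KO and 703 in group 3 labelled KO. Both libraries labelled KO were above the WT library of their sorted group, although WT group 3 was above group 2 labelled KO. The ratio was 1.39 (1.33 to 1.46) in group 2 and 1.46 (1.40 to 1.52) in group 3, and the fitted log2 fold was 0.51 (SE 0.14, adjusted p = 0.0081 in edgeR and 0.0248 in DESeq2). With 1 library left out, it ran from 0.16 without group 3 labelled KO to 0.83 without WT group 3.

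The other 4 kinases had no call for genotype. For Lck the ratio was 1.08 (1.06 to 1.09) in group 2 and 1.01 (0.995 to 1.03) in group 3. Zap70, the kinase that reads the phosphorylated chains, had 165, 136, 169 and 151 CPM in WT group 2, WT group 3, group 2 labelled KO and group 3 labelled KO. Txk, a TEC-family kinase, ran from 125.5 to 145 CPM. Csk encodes the kinase that keeps LCK and FYN inactive, and was lowest in group 2 labelled KO at 105, beside 127 to 131.5 in the other libraries, a genotype ratio of 0.82 (0.76 to 0.90) in group 2 and 1.02 (0.94 to 1.11) in group 3. None of these 4 passed edgeR's test for genotype, with adjusted p from 0.866 to 0.929.

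The membrane scaffold Lat was the adaptor that rose. It had 1045 CPM in WT group 2, 1396 in WT group 3, 1583 in group 2 labelled KO and 1602 in group 3 labelled KO. WT group 2 stood lowest, and the difference between genotypes was larger in group 2, at a ratio of 1.52 (1.48 to 1.55), than in group 3, at 1.15 (1.12 to 1.18). The fitted log2 fold was 0.40 (SE 0.13, adjusted p = 0.0357 in edgeR and 0.194 in DESeq2). With 1 library left out, it ran from 0.19 without WT group 2 to 0.61 without WT group 3.

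The remaining 9 adaptors and scaffolds did not pass edgeR's test for genotype, with adjusted p from 0.438 to 0.989. Lcp2, which encodes SLP-76, the partner of LAT, had 669.8 CPM in WT group 2, 709 in WT group 3, 644 in group 2 labelled KO and 720.5 in group 3 labelled KO. Grap2 encodes GADS, which joins SLP-76 to LAT, and ran from 41.8 to 51.9 CPM with both libraries labelled KO highest. Themis, needed for positive selection, had its lowest value in WT group 3 (634 CPM) and 740 to 767 elsewhere. Nck1, which links the receptor to actin, was lower in both libraries labelled KO, at ratios of 0.79 (0.73 to 0.86) and 0.85 (0.77 to 0.93), with adjusted p = 0.438 in edgeR. Vav1, an exchange factor for RAC, ran from 358 to 415 CPM, Plcg1, the phospholipase that makes the second messengers, from 86.4 to 103, and Pag1, which anchors CSK, from 117 to 134. Grb2, the adaptor that carries SOS1, and Tespa1, which acts between the receptor and calcium release, gave ratios from 0.97 to 1.13 in the 2 sorted groups.

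Surface partners and phosphatases had no call for genotype. Cd2 had 999.8 CPM in WT group 2, 1146 in WT group 3, 1208 in group 2 labelled KO and 1288 in group 3 labelled KO, so both libraries labelled KO lay above both WT libraries, by ratios of 1.21 (1.18 to 1.24) and 1.12 (1.09 to 1.15). Its adjusted p was 0.496 in edgeR. Cd6, a receptor that restrains signalling, gave ratios of 1.18 and 1.13 (adjusted p = 0.611). Ptprc encodes CD45, the phosphatase that primes LCK. It had 2212, 1908, 1730 and 1958 CPM in WT group 2, WT group 3, group 2 labelled KO and group 3 labelled KO, with a ratio of 0.78 (0.77 to 0.80) in group 2 and 1.03 (1.004 to 1.05) in group 3. Ptpn6, which encodes the inhibitory phosphatase SHP-1, had ratios of 0.96 and 1.01, and Ptpn22, a phosphatase that acts on LCK and ZAP70, of 1.04 and 1.19.

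Of the 4 ubiquitin ligase and UBASH3 genes, 1 passed the test for genotype. Ubash3b encodes STS-1, a phosphatase that acts on ZAP70, and rose from a low level. It had 57 counts in WT group 2, 80 in WT group 3, 120 in group 2 labelled KO and 155 in group 3 labelled KO, or 5.43, 9.81, 13.6 and 16.3 CPM. Both libraries labelled KO were above both WT libraries. The ratio was 2.5 (1.81 to 3.49) in group 2 and 1.66 (1.26 to 2.20) in group 3, and the fitted log2 fold was 1.02 (SE 0.30, adjusted p = 0.0202 in edgeR and 0.569 in DESeq2). With 1 library left out, it ran from 0.61 without WT group 2 to 1.46 without WT group 3. Its paralogue Ubash3a, the family member of T cells, lay at 93.4 to 123 RPKM, beside 3.24 to 9.37 RPKM for Ubash3b, and gave genotype ratios of 0.89 (0.82 to 0.96) and 1.01 (0.94 to 1.09). Cbl encodes a ubiquitin ligase that tags the active receptor complex. It had 167 CPM in WT group 2, 116 in WT group 3, 116 in group 2 labelled KO and 99.8 in group 3 labelled KO, so WT group 2 stood apart on the high side. Its fitted log2 fold was -0.38 (SE 0.15, adjusted p = 0.18 in edgeR). Cblb, a second ligase of the family, ran from 27.7 to 37.3 CPM, highest in group 3 labelled KO.

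Summed markers of myeloid and dendritic cells were also higher in the libraries labelled KO. The 12 listed genes summed to 60.5 CPM in WT group 2, 68.9 in WT group 3, 98.2 in group 2 labelled KO and 112 in group 3 labelled KO. In each sorted group 10 of the 12 were above WT, and S100a8 had 0 counts in WT group 3. The median log2 fold of all measured genes was 0.0033 in group 2 and -0.0056 in group 3. Of the 12, only C1qb passed edgeR's test for genotype (adjusted p = 0.0252 in edgeR and 0.553 in DESeq2). Lyz2 was the most abundant, at 31.9, 35.3, 45.4 and 54.3 CPM in the same order. The 9 B cell genes summed to 64.9 to 70.6 CPM in the WT libraries and 68.5 to 87.4 in those labelled KO, with no gene at 0. All 9 were above WT in group 2 and 7 in group 3. The 18 stage genes, which mix earlier and later stages, summed to 16040 to 20800 CPM. In the libraries labelled KO, 7 of them were above WT in group 2 and 6 in group 3. Rag1, which is shut off after selection, had 322 CPM in WT group 2 and 254 in WT group 3. It had 227 in group 2 labelled KO and 153 in group 3 labelled KO. Klf2, which rose from group 2 to group 3 in both genotypes, was also lower in the libraries labelled KO, at ratios of 0.92 and 0.61. The summed CPM of the other lists ran from 20.8 to 30.1 for NK and gamma delta T cells, from 360.5 to 538 for erythroid cells, from 27.1 to 33.6 for thymic epithelium and from 107 to 125 for stroma and endothelium. Genes above WT in groups 2 and 3 were 6 and 3 of the 6 erythroid genes. They were 2 and 3 of the 6 NK and gamma delta genes found. The numbers were 1 and 2 of the 6 epithelial genes and 4 and 1 of the 6 stromal and endothelial genes. The part of these cells and of stage in the 6 calls was not tested.

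In the RAS, PKC and NF-kB branch Bcl10 rose. Bcl10 encodes the partner of the protease MALT1 in the complex that PKC-theta turns on. It had 148 CPM in WT group 2, 127 in WT group 3, 189.8 in group 2 labelled KO and 196.5 in group 3 labelled KO, so the genotypes did not overlap. The ratio was 1.28 (1.20 to 1.37) in group 2 and 1.55 (1.44 to 1.67) in group 3, and the fitted log2 fold was 0.50 (SE 0.15, adjusted p = 0.0263 in edgeR and 0.185 in DESeq2). With 1 library left out, it ran from 0.38 to 0.61. Malt1 had 20.96, 22.8, 28.5 and 33.2 CPM in WT group 2, WT group 3, group 2 labelled KO and group 3 labelled KO. Its ratios, 1.36 (1.13 to 1.64) and 1.45 (1.21 to 1.75), were like those of Bcl10, but at this depth its log2 fold of 0.49 had an SE of 0.22 (adjusted p = 0.25 in edgeR).

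The RAS exchange factor Rasgrp1, which diacylglycerol recruits, had 765 CPM in WT group 2, 652 in WT group 3, 602 in group 2 labelled KO and 536 in group 3 labelled KO. The ratios were 0.79 (0.76 to 0.82) and 0.82 (0.79 to 0.86), and the genotypes did not overlap, but the fitted log2 fold of -0.31 (SE 0.13) had an adjusted p of 0.219 in edgeR. Sos1, the other RAS exchange factor of the group, ran from 21.9 to 29.5 CPM, and Prkcq, which encodes PKC-theta, from 341 to 388.

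In the calcium and NFAT branch, the plasma membrane channel gene Orai1 rose. It had 77.9 CPM in WT group 2, 75.1 in WT group 3, 122 in group 2 labelled KO and 121 in group 3 labelled KO. The sorted groups nearly coincided within each genotype, and the genotypes did not overlap. The ratio was 1.56 (1.42 to 1.71) in group 2 and 1.61 (1.46 to 1.78) in group 3. Its fitted log2 fold was 0.67 (SE 0.16, adjusted p = 0.00166 in edgeR and 0.0454 in DESeq2), and with 1 library left out it ran from 0.64 to 0.69. Stim1, the endoplasmic reticulum sensor that opens ORAI1, ran from 54.5 to 62.8 CPM, with ratios of 1.13 (1.01 to 1.28) and 0.97 (0.86 to 1.09).

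Nfatc1, the NFAT gene that is itself induced by the receptor, rose with genotype and fell with sorted group. It had 195 CPM in WT group 2, 118 in WT group 3, 276.5 in group 2 labelled KO and 165 in group 3 labelled KO. Group 2 was above group 3 in each genotype, and the libraries labelled KO were above WT in each sorted group, by ratios of 1.42 (1.33 to 1.5) and 1.40 (1.29 to 1.51). The fitted genotype log2 fold was 0.49 (SE 0.15, adjusted p = 0.0255 in edgeR and 0.127 in DESeq2). With 1 library left out and genotype alone in the model, it ran from 0.077 without group 2 labelled KO to 0.90 without WT group 2. Nfatc2 ran from 18.5 to 22.7 CPM. Nfatc3 ran from 225 to 263 CPM and gave ratios of 0.86 (0.81 to 0.91) and 0.88 (0.83 to 0.94), with adjusted p = 0.653 in edgeR.

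Each of the 2 catalytic calcineurin genes turned on 1 library. Ppp3cb had 35.1 CPM in WT group 2 and 18.3, 19.6 and 20.3 in WT group 3, group 2 labelled KO and group 3 labelled KO. Ppp3ca had 33.7 CPM in group 3 labelled KO and 21.4, 20.97 and 19.8 in WT group 2, WT group 3 and group 2 labelled KO. The genotype log2 fold of Ppp3cb was -0.82 in group 2 and 0.15 in group 3, and that of Ppp3ca was -0.11 and 0.67. Neither gene passed edgeR's test for genotype, at adjusted p of 0.576 and 0.693.

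**Figure D4:**
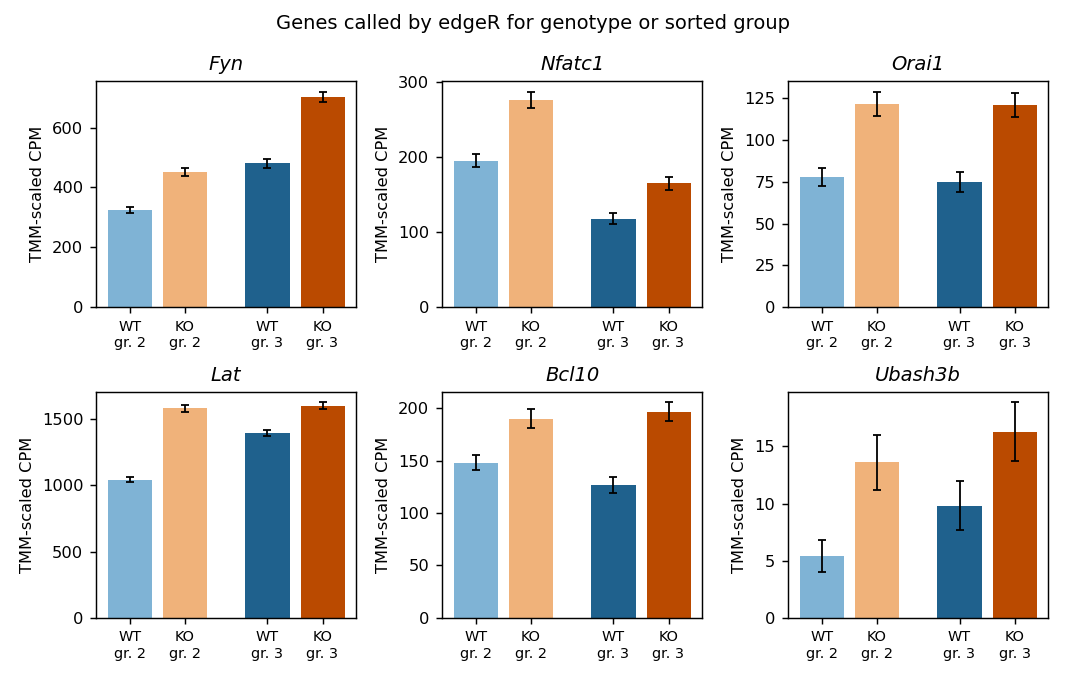
TMM-scaled CPM of the 6 genes called for genotype, 1 bar per library, KO meaning the library labelled KO; error bars are approximate 95% intervals from the square root of the count, which cover counting error only. Within each sorted group the bar labelled KO is the higher, and Fyn and Nfatc1 also differ between sorted groups.

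Within single pairs of libraries, a gene was counted as higher or lower at 1.5-fold with an interval that left out 1. In group 2, 3 of the 40 were higher in the library labelled KO (Lat, Ubash3b and Orai1) and 1 was lower (Ppp3cb), against 11.8% and 8.05% of all measured genes. In group 3, 4 were higher (Ubash3b, Bcl10, Orai1 and Ppp3ca) and 0 lower, against 6.39% and 10.6%. All measured genes include scarce ones, whose folds spread more widely. By fold alone, 36 of the 40 lay within 1.5-fold in each sorted group. The shares in groups 2 and 3 were 87.2% and 89.2% of the 9093 genes at 10 CPM or more in at least 1 library. Over all measured genes they were 77.7% and 79.7%. At 2-fold, Ubash3b in group 2 was the 1 gene left (6.45% of all measured genes higher there and 2.44% lower). In group 3 the count was 0 both ways, against 2.17% higher and 5.60% lower. Counting any size of ratio whose interval left out 1 in both sorted groups, 10 of the 40 were higher in both (1251 of 12490 measured genes, 10%), 4 were lower in both (8.54%) and 4 went opposite ways (9.50%). The 10 were Fyn, Lat, Themis, Cd2, Cd6, Ubash3b, Bcl10, Malt1, Orai1 and Nfatc1, and the 4 lower were Nck1, Cbl, Rasgrp1 and Nfatc3. Because the intervals narrow with counts, abundant genes enter these last numbers, which set no size of fold, more readily than scarce ones.

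From group 2 to group 3, the step at which surface TCRβ goes from intermediate to high, 1 of the 40 rose and 1 fell over both genotypes by edgeR's quasi-likelihood test, against 2.21% and 1.14% of all measured genes. Fyn rose, by a log2 fold of 0.61 (SE 0.14, adjusted p = 0.000886 in edgeR and 0.0029 in DESeq2). Its ratio of group 3 to group 2 was 1.48 (1.42 to 1.55) in WT and 1.56 (1.5 to 1.62) in the libraries labelled KO. Nfatc1 fell by 0.73 on the log2 scale (SE 0.15, adjusted p = 0.000101 in edgeR and 0.00191 in DESeq2), to 0.61 (0.56 to 0.65) of its group 2 level in WT and 0.60 (0.56 to 0.64) in the libraries labelled KO. DESeq2 called the same 2 genes (0.801% of all measured genes higher and 0.312% lower), as did limma-voom (1.95% and 0.937%). With any 1 of the 4 libraries left out and sorted group alone in the model, both calls were lost, with folds from 0.31 to 0.87 for Fyn and from -0.996 to -0.46 for Nfatc1. The comparisons by genotype and by sorted group use the same 4 libraries and are not independent.

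**Figure D5:**
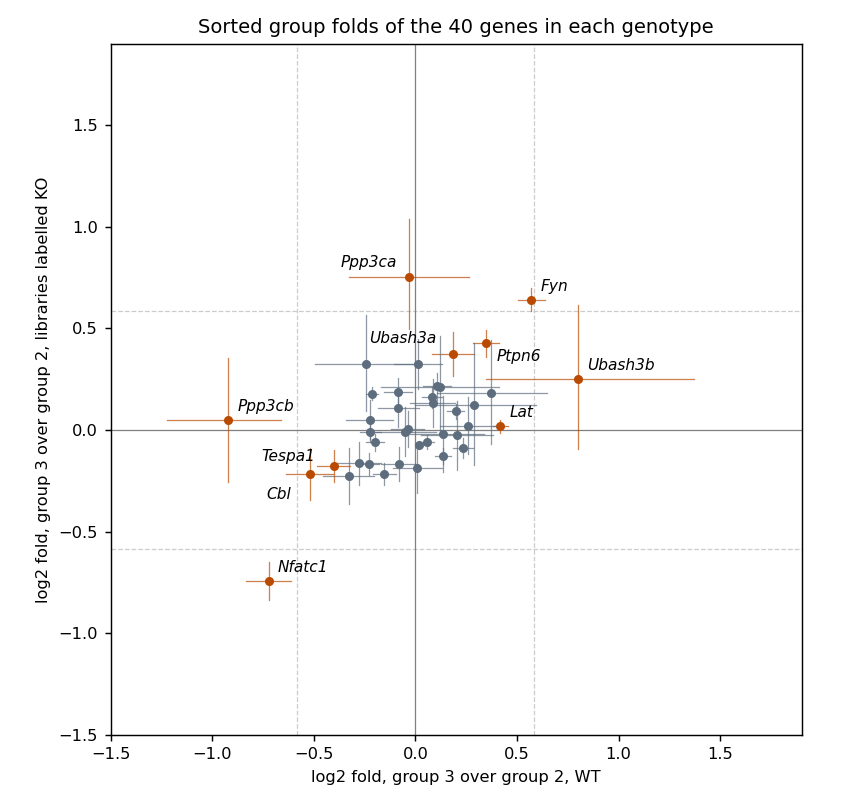
Log2 fold of TMM-scaled CPM plus 0.5, group 3 over group 2, in WT (x axis) and in the libraries labelled KO (y axis) for the 40 genes; lines are 95% counting intervals of the count ratio and dashed lines mark 1.5-fold. Fyn (0.57 and 0.64) and Nfatc1 (-0.72 and -0.74) lie on the same side in both genotypes, whereas Ppp3ca and Ppp3cb depart on 1 axis.

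The transcripts of the receptor chains passed no test between the sorted groups. Group 3 over group 2, the ratio was 0.87 (0.85 to 0.90) in WT and 0.96 (0.93 to 0.99) in the libraries labelled KO for Cd3d, and 1.10 (1.07 to 1.13) and 0.91 (0.89 to 0.94) for Cd3e. For Cd3g it was 1.04 (1.02 to 1.07) and 0.96 (0.94 to 0.98), and for Cd247 1.17 (1.14 to 1.22) and 0.94 (0.91 to 0.97). For 3 of the 4 chain genes the ratio was above 1 in WT and below 1 in the libraries labelled KO. Opposite ratios by interval, in either order, were found in 5 of the 40 genes and in 10.2% of all measured genes. The difference between genotypes was not tested. Ptpn6 had 374 CPM in WT group 2, 476 in WT group 3, 359 in group 2 labelled KO and 483 in group 3 labelled KO, with both group 3 libraries above both group 2 libraries. Its log2 fold was 0.39 (SE 0.14) with an adjusted p of 0.121 in edgeR.

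By interval in both genotypes, 6 of the 40 were higher in group 3 (8.41% of all measured genes), namely Fyn, Lcp2, Vav1, Cd2, Ptpn6 and Ubash3a. Another 8 were lower (7.34%), namely Cd3d, Zap70, Nck1, Tespa1, Cd6, Cbl, Rasgrp1 and Nfatc1, and 5 went opposite ways (10.2%). Tespa1 had 317 CPM in WT group 2, 239.9 in WT group 3, 307 in group 2 labelled KO and 272 in group 3 labelled KO, a log2 fold of -0.29 (SE 0.14, adjusted p = 0.439 in edgeR). At 1.5-fold in WT, Ubash3b was higher and Ppp3cb and Nfatc1 were lower (10.1% of all measured genes higher and 6.04% lower). In the libraries labelled KO, Fyn and Ppp3ca were higher and Nfatc1 was lower (5.96% and 10.7%). By fold alone, 37 of the 40 lay within 1.5-fold in each genotype. The shares in WT and in the libraries labelled KO were 89.9% and 90.3% of genes at 10 CPM or more. Over all measured genes they were 80.9% and 80.6%. At 2-fold the count was 0 in each direction in both genotypes, against 5.22% higher and 1.86% lower in WT and 1.85% and 5.99% in the libraries labelled KO. At an unadjusted p under 0.05, 6 of the 40 differed by sorted group in either direction in edgeR (10.7%) and 3 by DESeq2 (4.93%).

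The promoters of Fyn, Orai1 and Bcl10 are printed because these genes rose with genotype and each holds the CCAAT box. Of the 40 genes, 33 had RefSeq windows, 46 windows in all. Searched on both strands for the 5 letters CCAAT in the 250 bases before the start, 13 of the 46 windows matched, beside 33.8% of 32817 windows of all genes. The matches fell in 11 of the 33 genes. Among these, Cblb, Grb2, Nck1, Nfatc3, Plcg1, Txk and Zap70 had no genotype call. A link between the motif and genotype was not tested. Matches, shown in capitals (ATTGG where the motif is on the opposite strand), are a description of letters and not of bound sites. Fyn (chr10:39369549-39369798, plus strand) has 67.2% G and C and 21 CpG pairs, Orai1 (chr5:123014824-123015073, plus strand) has 70.8% and 30, and Bcl10 (chr3:145924012-145924261, plus strand) has 62.4% and 19.
Fyn: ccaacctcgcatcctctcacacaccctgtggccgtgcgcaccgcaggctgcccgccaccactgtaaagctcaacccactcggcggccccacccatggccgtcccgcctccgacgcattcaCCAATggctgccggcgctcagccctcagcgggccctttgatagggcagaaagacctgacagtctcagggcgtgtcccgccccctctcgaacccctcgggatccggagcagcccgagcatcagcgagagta
Orai1: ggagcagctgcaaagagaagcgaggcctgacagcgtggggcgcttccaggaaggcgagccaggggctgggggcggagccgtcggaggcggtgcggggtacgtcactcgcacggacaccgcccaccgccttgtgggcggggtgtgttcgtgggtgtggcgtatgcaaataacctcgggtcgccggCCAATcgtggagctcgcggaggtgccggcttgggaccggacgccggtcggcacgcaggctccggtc
Bcl10: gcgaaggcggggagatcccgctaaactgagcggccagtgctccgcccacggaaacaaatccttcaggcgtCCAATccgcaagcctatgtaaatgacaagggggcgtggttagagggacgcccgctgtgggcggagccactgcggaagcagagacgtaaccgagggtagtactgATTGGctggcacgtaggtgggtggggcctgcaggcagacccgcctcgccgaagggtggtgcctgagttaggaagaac

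The Bcl10 window holds 2 matches, one on each strand, and the Fyn and Orai1 windows 1 each. Ubash3b has 2 windows, of which 1 holds a match, and the Lat window holds none. Other cores searched on both strands gave no match in the windows of Fyn, Bcl10 or Lat: CCGGAA for ETS factors, GGAAAA for NFAT, TGANTCA for AP-1, TGACNNNGC for the antioxidant response element, CAGCTG for E proteins and TATAAA. Orai1 held CAGCTG, as did 13.0% of all windows. Ubash3b held GGAAAA 2 times in its window without CCAAT, and no match to the other cores. Nfatc1 was among the 7 genes without a window. TGACNNNGC matched in 3 of the 46 windows (of Nck1, Ptprc and Zap70), beside 10.2% of all windows, and GGAAAA in 9 of the 46, beside 20.4%.

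Beyond the 40 genes, 93 other genes of the pathway were listed by role and 86 were measured. For genotype, 2 rose by edgeR's quasi-likelihood test, against 2.95% of all measured genes. Tec, a kinase of the TXK family, had 45.8 CPM in WT group 2, 39.9 in WT group 3, 80.8 in group 2 labelled KO and 60.3 in group 3 labelled KO (log2 fold 0.71, SE 0.18, adjusted p = 0.00341 in edgeR and 0.13 in DESeq2). Tnfaip3, which encodes A20, a brake on NF-kB, had 347, 294, 518 and 498 CPM (0.67, SE 0.14, adjusted p = 0.000142 in edgeR). In both the genotypes did not overlap, a pattern whose share of all measured genes was not counted. Each of these calls was lost when any 1 of the 4 libraries was left out. Those fits held genotype alone, which puts sorted group into the error term. The folds there ran from 0.495 to 0.91 for Tec and from 0.55 to 0.79 for Tnfaip3. None of the 8 TCR constant and coreceptor genes or the 17 other calcium and calcineurin genes measured passed for genotype.

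For sorted group 3 of the 86 rose and 6 fell by edgeR's quasi-likelihood test, against 2.21% and 1.14% of all measured genes. DESeq2 called 1 and 2, against 0.801% and 0.312%. The 6 that fell included 4 of the 8 TCR constant and coreceptor genes. Cd5, an inhibitory receptor set by signal strength, had 617.5 CPM in WT group 2, 404 in WT group 3, 616.5 in group 2 labelled KO and 389 in group 3 labelled KO, and fell by 0.64 on the log2 scale (SE 0.14, adjusted p = 0.000328 in edgeR). Trbc1, Trbc2 and Cd8b1 fell by 0.40, 0.37 and 0.41 on the log2 scale in edgeR, and none of these 3 was called by DESeq2, where adjusted p was 0.273, 0.402 and 0.167. For these 3, group 3 was at 0.90, 0.93 and 0.86 of group 2 in WT and at 0.64, 0.64 and 0.65 in the libraries labelled KO. Without group 3 labelled KO the folds were -0.23 for Trbc1 and -0.18 for Cd8b1, and without group 2 labelled KO the fold of Trbc2 was -0.21. The calcium-dependent kinase gene Camk4 fell by 0.52 on the log2 scale (SE 0.14, adjusted p = 0.00733 in edgeR), and Rasgrp4, scarce at 2.70 to 13.7 CPM, by 1.39 (SE 0.37, adjusted p = 0.00926 in edgeR and 0.43 in DESeq2). Those that rose were Pik3cd, the PI3 kinase subunit of leukocytes, by 0.67 (SE 0.15, adjusted p = 0.00112 in edgeR), the adaptor gene Grap by 0.52 and the ERK kinase gene Map2k1 by 0.57. Grap rested on WT group 2, at 168 CPM beside 264.5 to 305 in the other libraries. These calls were lost when any library was left out, while each fold kept its sign. Those fits held sorted group alone, which puts genotype into the error term. The loss therefore does not show whether a call rests on a single library.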

How the data were processed

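RNA sequencing was done on sorted thymocytes, 1 library for each of 4 groups of genotype and sorted group, placed by the sample titles. The authors deposited raw counts per Ensembl gene and a separate RPKM table for each library; the submitters' processing notes name TopHat2 2.0.12 and mm10. Which program counted the reads, its strand setting, its gene lengths and the read layout are not given in the sources used here. The deposited RPKM matched the deposited counts through 1 whole gene length per gene, within 0.01 bp, and served for levels between genes. Of 35275 IDs, 34490 were matched to symbols and coordinates in GENCODE M21. The 785 others held up to 0.128% of a library and stayed in the totals. No column of values was left unused (0).

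Counts were scaled with TMM factors in edgeR 4.0.16 (R 4.3.3) over the 12490 genes at 2 CPM in at least 1 library. Pair folds are log2 ratios of scaled CPM plus 0.5, with exact conditional binomial (Clopper-Pearson) 95% intervals of the count ratio, which cover counting error only; no p-value was drawn from a pair. Shared effects were tested with edgeR's quasi-likelihood test (sorted group plus genotype, Benjamini-Hochberg over all measured genes, threshold 0.05). The common dispersion was 0.0288, and each gene's spread was taken from the trend. Fits and intervals were tested on simulated data. DESeq2 1.42.0, limma-voom (limma 3.58.1), other scalings, filters and pseudocounts were alternatives. All 40 genes were eligible to be named, with their values, as were listed pathway genes called by edgeR. The 40 genes, the pathway lists and the marker lists were chosen with earlier results of these data known. 1 listed pathway gene is not reported here.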

Additional observations from a re-analysis of the deposited data

Results flagged for a closer look

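In 6 of the 40 genes, a fold went in opposite directions in the 2 sorted groups or in the 2 genotypes, and both counting intervals left out a ratio of 1. With 1 library per group these differences were not tested, and the share of all measured genes that did so was 9.50% for genotype and 10.2% for sorted group. For the genotype fold, the log2 value in group 3 minus that in group 2 was 0.14 for Cd3d, -0.32 for Cd247, 0.39 for Ptprc and 0.27 for Prkcq. For the sorted group fold, the value in the libraries labelled KO minus that in WT is the same arithmetic on the same 4 counts. It was -0.26 for Cd3e and -0.12 for Cd3g, and again -0.32 for Cd247, 0.39 for Ptprc and 0.27 for Prkcq. The Ptprc value goes with 2212 CPM in WT group 2 and 1730 in group 2 labelled KO, the highest and lowest of its 4 libraries.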

How the results depend on the processing

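Counts of higher and lower genes in a pair kept to within 1.5 times under DESeq2 size factors, plain library totals, a pseudocount of 2 CPM, no filter and a filter at 10 CPM. At 2-fold in place of 1.5-fold they dropped from 3 higher and 1 lower to 1 and 0 in group 2, and from 4 higher to 0 in group 3. From group 2 to group 3 they dropped from 1 and 2 to 0 and 0 in WT, and from 2 and 1 to 0 and 0 in the libraries labelled KO. The 6 genotype calls became 2 (Fyn and Orai1) with DESeq2, with edgeR's filterByExpr and without a filter. They were 5 with limma-voom (without Ubash3b) and with robust shrinkage (without Lat), and 6 with DESeq2 size factors in edgeR. The 2 sorted group calls, Fyn and Nfatc1, were kept under each of these 6. With the tested term alone, which puts the other factor into the error term, both counts were 0. Leaving out 1 library in turn gave counts from 0 to 0 for both effects; 3 libraries leave the model of 2 terms no residual degree of freedom, so these fits also held the tested term alone, a choice made after seeing the data. The lone library of a group is there assumed to vary like the others. No fold of a called gene changed sign. No paired analysis was possible because each group held 1 library and the labels give no replicate number to serve as a block; genotypes are compared within sorted groups by the model itself. Depth limits Ubash3b, with 57 counts in its lowest library, most among the called genes.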

Other observations

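Within 1 Mb of the genes called for genotype, Lat had 3 other called genes (Gdpd3, Kif22 and Aldoa), 1 of them changed in the same direction. Bcl10 had 1 (2410004B18Rik) and Orai1 had 1 (Vps37b), while Fyn, Nfatc1 and Ubash3b had 0. Of the 602 genes called for genotype, 61.1% had another called gene within that distance.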
